A study of Mus musculus with 25 samples.

Results

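The cells described here are 1096 germ cells from Ythdc2 knockout (KO) testes that the authors placed in 2 mixed clusters, named for differentiating spermatogonia together with leptotene-zygotene cells. The 578 M-phase high and 518 M-phase low cells were chosen by a measured value, the share of a cell's UMIs (unique molecular identifiers, each standing for 1 captured transcript) that came from 20 mitotic genes: 1% or more in high cells and 0.5% or less in low cells. Another 782 of the 1878 KO cells of these clusters lay between and entered no comparison, and the single-cell series holds 4528 cells in all. Testis cells of postnatal day 10 mice with a 4N DNA content, which both replicated dividing cells and cells in meiotic prophase have, were captured from 2 Ythdc2 KO samples and 1 Ythdc2 wild-type (WT) sample, all on a mixed C57BL/6 and DBA/2 background. The sample titles carry the word embryo beside P10, and the age label and extraction protocol were followed. The KO libraries, KO A with 1522 cells and KO B with 1855 cells, could not be matched to single KO samples. The labels do not say whether these are different animals, so the variation behind the p-values may be technical. It was pooled over genes, so a p-value is not a measure of how far a single gene varied between the libraries. The WT library held 1151 cells. Bulk RNA-seq and iCLIP samples of the series were not analysed here.

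YTHDC2, an RNA helicase that also carries a YTH domain, works with MEIOC and RBM46 in germ cells leaving the mitotic cycle for meiosis. A germ cell that enters meiosis normally replicates its DNA in a last S phase and then builds the axes of its chromosomes, pairs them along the synaptonemal complex and recombines them, with cyclin-dependent kinase activity held below the level that starts an M phase. In mice that lack YTHDC2 or MEIOC, spermatocytes are known to begin this programme and then condense their chromosomes early, as in mitosis. The cells compared here carry transcripts of both programmes, and the question was which other transcripts differ between cells rich and poor in mitotic ones.

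Total depth was 18089957 UMIs in KO A, 25447581 in KO B and 16342955 in WT, of which the 1096 cells held 13330805. No barcode was shared between libraries (0 for each pair). Ythdc2 averaged 0.583, 0.650, 0.380 and 0.410 normalised UMIs per cell in high cells and 0.613, 0.688, 0.412 and 0.475 in low cells, in the order KO A and KO B of the first mixed cluster and KO A and KO B of the second, which is kept below. In the WT library, cells of the authors' differentiating spermatogonia cluster that were high or low by the same shares held 1.99 and 1.83. KO cells of that cluster held 0.477 and 0.518 in high cells and 0.394 and 0.533 in low cells (KO A, KO B). The KO libraries thus lay in the direction of their labels. Markers of Sertoli, Leydig, myoid, stromal, endothelial, macrophage and red blood cells were at or near 0: the 16 that the files hold summed to between 0.0925 and 0.177 normalised UMIs per cell in high cells and between 0.0911 and 0.198 in low cells, and Tcf21 and Dcn were at 0 in all 8 classes. The first cluster was shallower than the second. Its high and low cells held medians of 8632 and 7842 UMIs in KO A and 9079 and 8191 in KO B, and those of the second cluster held 18626 and 14694 in KO A and 17123 and 15116 in KO B. Depth and M-phase share thus moved together within each cluster, while the mitochondrial share was lower in high cells of all 4 pairs. Its medians in high and low cells were 9.89% and 10.7% in the first cluster of KO A, 8.73% and 8.97% in that of KO B, 4.34% and 4.89% in the second cluster of KO A and 4.25% and 4.45% in that of KO B. All values below are divided by the authors' size factor of each cell, and the counts of calls with every cell thinned to 5000 UMIs are given with the other settings.

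Promoter windows of 4 genes with large differences are printed, each from 250 bases before to 50 bases after the start site on the strand of the gene (RefSeq, GRCm38.p6). Whether these promoters have a part in the differences was not tested. Of the 15 genes with the largest differences in each direction, the 2 with the most UMIs are shown, Arl6ip1 and Cks2 from those higher in high cells and Hist1h2aa and Hist1h1a from those lower. Capitals mark CCAAT, in either orientation, and TTTGAA, 1 of the 2 forms of the cell cycle genes homology region searched.
Arl6ip1 (chr7:118129576-118129875, minus strand): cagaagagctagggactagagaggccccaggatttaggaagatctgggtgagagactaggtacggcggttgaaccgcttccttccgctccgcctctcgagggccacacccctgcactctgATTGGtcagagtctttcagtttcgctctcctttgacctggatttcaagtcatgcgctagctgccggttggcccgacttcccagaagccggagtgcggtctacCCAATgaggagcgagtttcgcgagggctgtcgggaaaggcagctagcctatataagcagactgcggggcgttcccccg
Cks2 (chr13:51644982-51645281, plus strand): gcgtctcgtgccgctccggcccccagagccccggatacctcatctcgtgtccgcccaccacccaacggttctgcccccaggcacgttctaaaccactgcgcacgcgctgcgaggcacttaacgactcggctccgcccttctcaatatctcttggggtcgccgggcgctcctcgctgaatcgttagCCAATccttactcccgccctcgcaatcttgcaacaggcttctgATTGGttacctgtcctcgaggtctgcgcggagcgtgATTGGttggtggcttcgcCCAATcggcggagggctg
Hist1h2aa, listed by RefSeq as H2ac1 (chr13:23934187-23934486, plus strand): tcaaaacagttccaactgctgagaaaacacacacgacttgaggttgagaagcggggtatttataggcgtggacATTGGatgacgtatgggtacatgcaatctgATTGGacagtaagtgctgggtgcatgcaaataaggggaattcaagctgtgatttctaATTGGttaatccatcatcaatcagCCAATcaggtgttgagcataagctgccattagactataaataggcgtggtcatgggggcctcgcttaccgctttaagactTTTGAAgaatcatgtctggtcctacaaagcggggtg
Hist1h1a, listed by RefSeq as H1f1 (chr13:23763418-23763717, plus strand): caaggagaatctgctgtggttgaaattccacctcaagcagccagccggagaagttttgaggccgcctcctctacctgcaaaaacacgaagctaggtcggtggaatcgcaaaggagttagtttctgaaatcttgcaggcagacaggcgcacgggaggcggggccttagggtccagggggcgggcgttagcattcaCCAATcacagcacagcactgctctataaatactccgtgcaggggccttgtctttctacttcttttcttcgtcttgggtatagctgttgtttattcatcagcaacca
The Arl6ip1 window holds 2 CCAAT matches and the Cks2 window 4. The Hist1h2aa window holds 4 CCAAT matches and 1 TTTGAA, and the Hist1h1a window 1 CCAAT match. Hist1h2aa lies head to head with Hist1h2ba, the start sites being 281 bases apart on opposite strands of chromosome 13.

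High and low cells were found in both clusters and both libraries. In the first mixed cluster 29.4% of the cells in KO A (exact 95% binomial interval 25.7 to 33.2, 174 of 592 cells) and 32.9% in KO B (28.5 to 37.5, 145 of 441) were high, and 28.9% (25.3 to 32.7) and 28.3% (24.2 to 32.8) were low. In the second, 26.9% of KO A cells (22.2 to 32.0, 90 of 335) and 33.1% of KO B cells (29.1 to 37.4, 169 of 510) were high, and 29.6% (24.7 to 34.8) and 24.1% (20.5 to 28.1) were low. These intervals cover counting error only. Low cells were scarcer among KO differentiating spermatogonia, at 12.7% in KO A and 7.49% in KO B, where 39.1% and 47.2% were high. In the WT library the authors' leptotene-zygotene cluster was mostly low, with 295 of 427 cells low (69.1%) and 17 high (3.98%). These shares describe the sorted cells, since the 4N sort sets which cells were seen.

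The share itself was spread without an empty stretch but not evenly. Over the 1878 cells its median was 0.737%, its quartiles were 0.480% and 1.07%, and its range was 0.126% to 1.79%. Many cells lay near the borders: 77 from 1% to under 1.05% and 78 from 0.95% to under 1%, and 124 over 0.45% to 0.5% and 110 over 0.5% to 0.55%. The nearest cells on either side of the upper border had 1.0007% and 0.9996%, and those of the lower border 0.5% and 0.5012%. In bins of 0.05 points, the first cluster of KO A held 53 cells over 0.5% to 0.55%, 9 over 0.85% to 0.9% and 27 over 1.05% to 1.1%. The second cluster of KO A held 29 over 0.35% to 0.4%, 6 over 0.8% to 0.85% and 19 over 0.95% to 1%. The first cluster of KO B held 34 over 0.4% to 0.45%, 12 over 0.8% to 0.85% and 22 over 1% to 1.05%, and its second cluster 41 over 0.35% to 0.4%, 16 over 0.65% to 0.7% and 30 over 1.1% to 1.15%. The fullest bin of each panel thus lay near the lower limit. The other bins named are single extremes. In the first cluster of KO A the bins beside the 9 held 23 and 19 cells, and those beside the 27 held 16 and 14. Whether the share has a second peak was not tested. High and low are ranges of this share set by fixed limits, with cells on both sides of each.

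**Figure D1:**
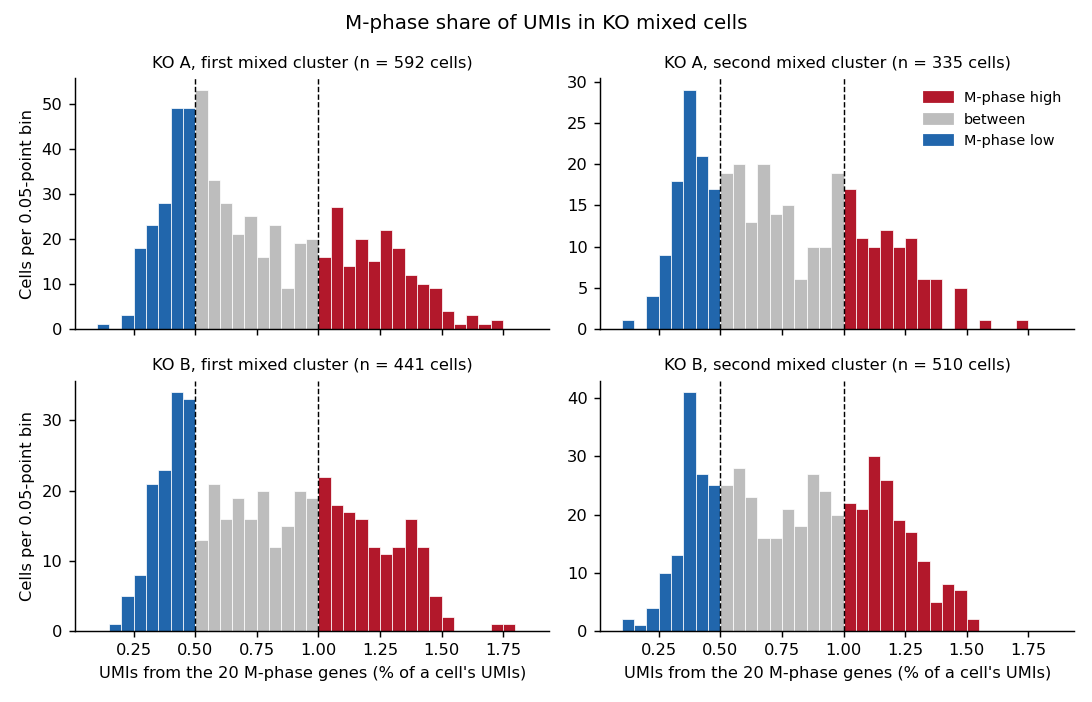
Number of cells (vertical axis) by the percent of a cell's UMIs from the 20 mitotic genes (horizontal axis), in 1 panel for each KO library and mixed cluster, with high cells, low cells and the cells between them in different colours. The fullest bin of each panel lies near 0.5% or below, counts at higher shares vary from bin to bin, and the median over all 1878 cells is 0.737%.

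The 20 genes that chose the cells are given as a description, with no test. Their summed level was 125, 122, 129 and 128 normalised UMIs per cell in high cells and 39.1, 38.2, 40.4 and 41.4 in low cells. The genes did not contribute evenly. Plk1, the kinase that drives mitotic entry and spindle assembly, stood at 7.22, 6.30, 4.72 and 4.70 in high cells and 0.321, 0.365, 0.330 and 0.356 in low cells, a ratio of 16.7. Ccnb1 (cyclin B1, the partner of CDK1) differed 13.0-fold, Aurka (the centrosomal Aurora kinase) 10.0-fold and Ube2c (an enzyme that loads ubiquitin for the anaphase-promoting complex) 8.29-fold. At the other end Top2a, the topoisomerase that untangles replicated DNA, differed 1.6-fold and was still at 9.53, 9.56, 10.5 and 11.2 in low cells, and Bub1, a checkpoint kinase, differed 2.00-fold. Top2a made up 25.7% of the 20 genes' level in low cells and 12.9% in high cells.

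Outside the 20 genes, 2361 of 9295 genes tested differed between high and low cells at an adjusted p under 0.05 (25.4%), 1112 of them higher in high cells (12.0%) and 1249 lower (13.4%). The test was limma on the 2 within-library differences of log2(mean normalised UMIs per cell + 0.01), averaged over both clusters, with Benjamini-Hochberg adjustment over all 9295 genes. With 2 libraries an exact permutation test cannot go below 0.5, so every call depends on limma's pooling of variance over genes. Most differences were small: 115 called genes were higher by 1 or more on the log2 scale and 88 were lower by as much, and the median over all genes was -0.02. Of the called genes, 2086 (88.4%) had the same sign in all 4 pairs of library and cluster. The level of a gene that runs with the 20 through the cell cycle is tied to the choice of cells, so these calls describe what else high cells carry and are not independent of that choice.

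The genes that were highest in high cells over low ones were, by their known roles, mostly of mitosis. Arl6ip1, a membrane protein of the endoplasmic reticulum, averaged 17.4, 16.9, 17.1 and 17.2 normalised UMIs per cell in high cells and 3.14, 2.92, 2.89 and 2.78 in low cells. The log2 difference was 2.54 ± 0.05 (SE from limma's variance pooled over genes, 2 libraries, here and below). The classes were far apart in both clusters and both libraries. Cks2, the small subunit that binds cyclin-dependent kinases, averaged 11.9, 10.6, 10.8 and 9.68 in high cells and 1.37, 1.23, 1.81 and 1.35 in low cells (log2 2.90 ± 0.05). Bub3, a spindle checkpoint protein, averaged 2.96, 2.94, 2.63 and 2.77 in high cells and 0.457, 0.520, 0.365 and 0.483 in low cells (2.61 ± 0.09). Neither gene overlapped between the classes. Cdc25c, the phosphatase that activates CDK1, was scarce, at 0.369, 0.432, 0.508 and 0.435 in high cells and 0.0186, 0.0515, 0.0461 and 0.0403 in low cells (3.23 ± 0.23). Arhgef39, a guanine nucleotide exchange factor whose gene overlaps Car9, had the largest fitted difference, 3.51 ± 0.33, at 0.178, 0.143, 0.380 and 0.284 in high cells and 0.00865, 0, 0.0278 and 0.0181 in low cells, so that the value depends on the constant added before the log. The rest of the 15 largest were Troap (2.67), Cep89 (2.61), Prr11 (2.56), Hyls1 (2.49), Aspm (2.30), Cdkn3 (2.27), Cenpa (2.17), Kif18b (2.16), Ccnf (2.16) and Prc1 (2.07), all log2 differences that passed the test. Hyls1 overlaps Pus3, which was among the 15 largest in the opposite direction (log2 -2.19 ± 0.28), and Cep89 overlaps a predicted gene. Whether counting used strand is not stated, so the reads of such pairs are uncertain.

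**Figure D2:**
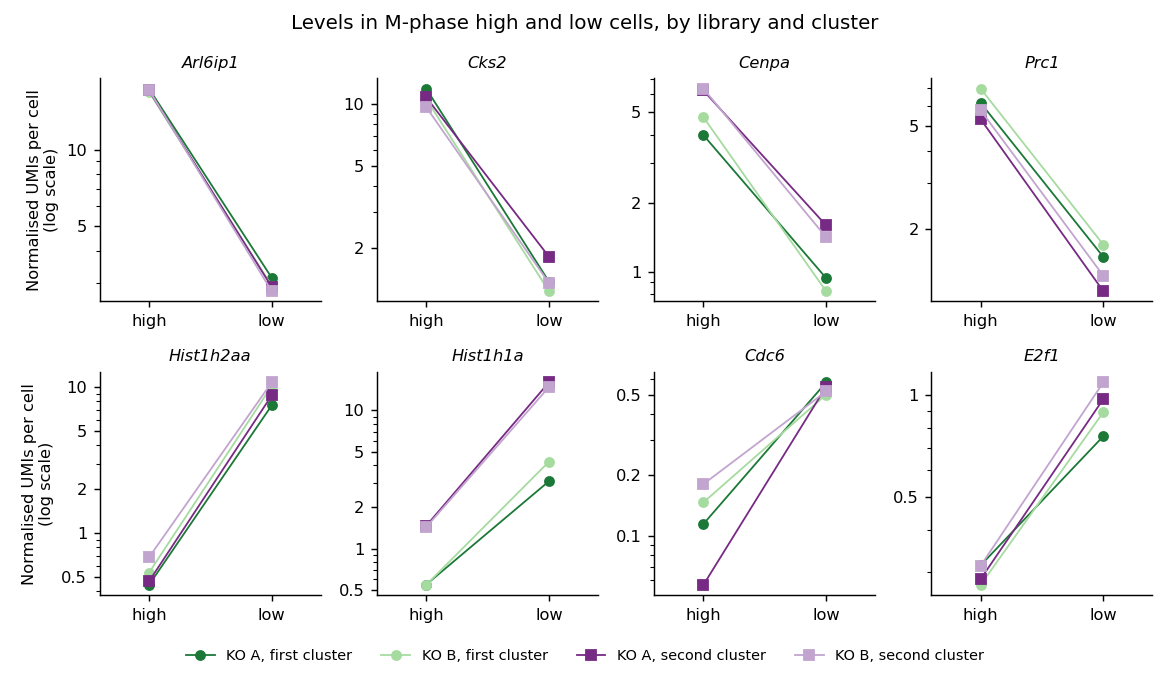
Mean normalised UMIs per cell (vertical axis, log scale) in M-phase high and low cells for 8 genes, with 1 line for each KO library and cluster. The 4 upper genes are above their low cells in every line (Arl6ip1 at 16.9 to 17.4 against 2.78 to 3.14), and the 4 lower genes are below them in every line.

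By function, genes of the spindle and its motors were mostly higher in high cells. The list held 31 genes, for kinesins, centralspindlin, the chromosomal passenger complex and cytokinesis and also Arl6ip1. It was put together with earlier results of these data known. Of the 31, 27 were higher in high cells and 0 were lower. The median log2 difference was 1.51, against 12.0% of all genes higher and a median of -0.02. Their summed level was 88.3 to 91.6 normalised UMIs per cell in high cells and 34.2 to 37.7 in low cells. Arl6ip1 alone made up 16.9 to 17.4 of it in high cells and 2.78 to 3.14 in low cells. Prc1, which bundles the microtubules of the central spindle (its gene overlaps Rccd1), averaged 6.15, 6.98, 5.32 and 5.76 in high cells and 1.56, 1.74, 1.15 and 1.32 in low cells. Aspm, which focuses spindle poles, averaged 2.22, 2.04, 2.20 and 2.75 in high cells and 0.529, 0.392, 0.372 and 0.567 in low cells. Both genes were high in high cells of both libraries, and for 27 of the 31 genes the 4 high and 4 low class means did not overlap, against 13.5% of all genes (6.10% with high cells above low ones and 7.42% with high cells below).

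Regulators of mitotic entry were higher in 19 of 26 cases and lower in 2, against 12.0% and 13.4% of all genes, with a median log2 difference of 0.91. Beside Cks2 and Cdc25c these were led by Ccnf (an F-box cyclin, 2.16 ± 0.09) and Nek2 (a centrosome kinase, 1.90 ± 0.09). Ensa, a phosphatase inhibitor, at -0.42, and Cdc25a, the CDC25 phosphatase that also acts at the start of S phase, at -0.33, were the 2 that were lower, the Cdc25a call being lost with DESeq2. Of 33 kinetochore and checkpoint genes 17 were higher, 4 lower and 12 did not pass (median 0.34). The share lower was near the 13.4% of all genes. Cenpa, the centromeric histone H3 variant, averaged 3.98, 4.77, 6.24 and 6.36 in high cells and 0.940, 0.824, 1.6 and 1.42 in low cells (2.17 ± 0.06). Sgo2a (shugoshin, which protects cohesion at centromeres) and Cenpl followed at 1.5 and 1.51. The 4 that were lower were the kinetochore subunits Cenpu (-0.86), Spc24 (-0.44), Cenph (-0.38) and Pmf1 (-0.37), the calls of Cenph and Pmf1 being lost with DESeq2. Genes of chromosome condensation and the nuclear envelope were higher in 15 of 24 cases and lower in 4 (median 0.35), against the same 12.0% and 13.4% of all genes. Rangap1, which sets the Ran gradient around chromosomes, differed by 1.90, Kpna2, an importin that Ran controls, by 1.65, and Lmnb1 (lamin B1) by 1.12. Tubb4b, a beta tubulin, was counted in this list. It was abundant in both classes, at 33.9, 32.3, 36.3 and 34.0 in high cells and 18.3, 17.6, 17.2 and 16.5 in low cells (0.97 ± 0.03).

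For the anaphase-promoting complex, the ubiquitin ligase that ends mitosis, the largest differences were in genes that act with its core. Of 19 genes tested 6 were higher and 2 lower, against 12.0% and 13.4% of all genes, with a median of 0.05. Its coactivator Fzr1 (1.63 ± 0.09), its inhibitor Fbxo5 (1.56 ± 0.09), its chain-elongating enzyme Ube2s (1.23 ± 0.04) and Espl1 (1.15 ± 0.10), the separase it releases, were the 4 with the largest differences. Ube2s averaged 24.1, 22.4, 25.2 and 23.3 in high cells and 9.71, 9.60, 10.9 and 10.3 in low cells. Core subunits called were Cdc27 (0.82) and Anapc7 (0.50), which were higher, and Cdc16 (-0.55) and Anapc11 (-0.27, lost with DESeq2), which were lower. A list of 12 tubulin genes in the files left out Tubb4b, which was counted with the chromosome genes above. Of the 12, 8 were tested and 3 were higher, against 12.0% of all genes. Tuba3b, an alpha tubulin of germ cells, was at 0.82 and Tubb5 at 0.40.

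Low cells carried more transcripts of DNA replication and of histones. Of 41 genes of replication and nucleotide supply 35 were lower in high cells and 0 higher, with a median of -0.50, against 13.4% of all genes lower. Their summed level was 55.7, 55.8, 54.0 and 50.8 normalised UMIs per cell in high cells and 76.5, 76.2, 71.0 and 73.2 in low cells. Cdc6, which licenses replication origins, averaged 0.114, 0.146, 0.0568 and 0.180 in high cells and 0.577, 0.502, 0.549 and 0.520 in low cells (-2.13 ± 0.17). Ung, which removes uracil from DNA and whose gene overlaps Alkbh2, differed by -1.59, Chaf1b, a chromatin assembly subunit, by -1.33, and Pcna, the polymerase clamp, by -1.16. The classes did not overlap for any of these 4. Genes that regulate the cell cycle at the level of transcription went both ways, 4 higher and 8 lower of 19 tested, against 12.0% and 13.4% of all genes. E2f1, an activator of S-phase genes, averaged 0.314, 0.275, 0.286 and 0.313 in high cells and 0.756, 0.890, 0.973 and 1.09 in low cells (-1.6 ± 0.12; it overlaps Necab3). E2f2 (-0.79) and Mybl2 (-0.70) were also lower in high cells. E2f5, an E2F that acts as a repressor, was higher, by 0.88, as were Foxm1 (0.49), an activator of mitotic genes, and Mybl1 (0.36), the MYB factor of spermatocytes. The calls of Foxm1 and Mybl1 were lost with DESeq2 and after thinning, each of which left 1 gene of the list higher, E2f5.

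Histone genes gave the largest differences in the other direction, and 13 of the 15 genes with the largest such differences were histones, the others being Pus3 and Cdc6. Most replication-dependent histone messages lack a poly(A) tail, and near-identical copies can share reads, so single genes are uncertain and the list was put together after its values were seen. The summed level over all 56 histone genes in the files was 2.57, 2.81, 3.82 and 4.16 normalised UMIs per cell in high cells and 18, 25.2, 35.7 and 36.8 in low cells. Hist1h2aa, a testis H2A, averaged 0.442, 0.535, 0.467 and 0.682 in high cells and 7.51, 10.2, 8.79 and 10.8 in low cells, 17.5-fold more in low cells (log2 -4.11 ± 0.07). Its head-to-head neighbour Hist1h2ba, the testis H2B, averaged 0.211, 0.214, 0.254 and 0.273 in high cells and 1.87, 2.92, 2.16 and 2.79 in low cells (-3.28 ± 0.10). Both differed by a similar factor in each library and cluster. The linker histone Hist1h1a averaged 0.55, 0.547, 1.46 and 1.43 in high cells and 3.07, 4.25, 15.9 and 14.7 in low cells (-3.05 ± 0.06), with the second cluster above the first in both classes. Hist1h1t, the linker histone of spermatocytes, was scarce, at 0.0587, 0.158, 0.0667 and 0.0949 in high cells and 0.289, 0.433, 0.418 and 0.404 in low cells (-1.99 ± 0.20).

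Class medians of histone and replication transcripts fell from low cells through the cells between to high cells. Whether single cells change by degrees was not tested. With each cell thinned to 5000 UMIs, the median cell held 9, 12, 16 and 15 histone UMIs among low cells, 5, 4, 6 and 6 among the cells between and 1, 1, 1 and 2 among high cells. The cells between were widely spread, with quartiles of 2 and 9, 1 and 10, 1 and 13, and 2 and 14 histone UMIs. The replication list had medians of 40, 39, 32 and 34 UMIs in low cells, 35, 34, 28 and 28 between and 28, 26, 25 and 23 in high cells. As a description over the cells of each library and cluster, which share a library and a cluster each, Spearman's rank correlation between the M-phase share and the histone UMIs was -0.71 and -0.75 in the first cluster (592 KO A and 441 KO B cells) and -0.71 and -0.71 in the second (335 and 510 cells). For the replication list it was -0.57 and -0.55 in the first and -0.42 and -0.52 in the second. For genes of the chromosome axis and synaptonemal complex it was between 0.03 and 0.22.

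**Figure D3:**
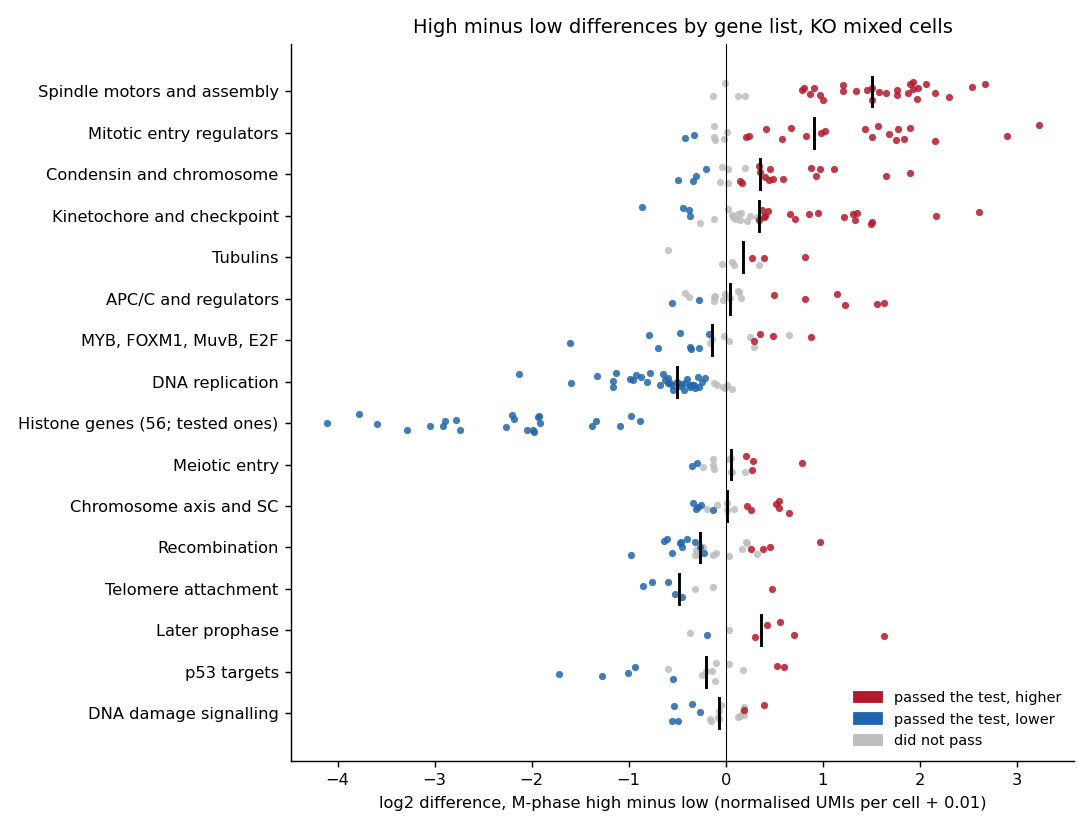
Log2 difference between M-phase high and low cells (horizontal axis) for each gene tested in the gene lists, 1 row for each list, with the list's median marked for all but the histone genes. Spindle genes lie almost wholly to the right of 0 (median 1.51) and replication genes to the left (-0.50), and the meiotic lists lie on both sides.

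Genes of the chromosome axis and synaptonemal complex were called in both directions. Sycp1, which forms the central filament of the synaptonemal complex, averaged 11, 11.3, 18.5 and 17.1 in high cells and 7.00, 6.59, 11.7 and 12.0 in low cells. It was higher in high cells of every library and cluster, by 0.65 ± 0.04 on the log2 scale, and the second cluster was above the first in both classes. Sycp3, an axis protein, averaged 7.19, 10.2, 11.6 and 13.1 in high cells and 4.4, 7.35, 8.11 and 9.26 in low cells (0.55 ± 0.04; its gene overlaps Chpt1). Hormad1, a HORMA-domain protein of unpaired axes, differed by 0.52 ± 0.05. In all, 6 of 16 axis, cohesin and synaptonemal genes were higher and 5 lower, against 12.0% and 13.4% of all genes. The median was 0.01 and turned to -0.04 with CPM scaling. The other 3 that were higher were Rad21l (0.55), Sycp2 (0.26) and Stag3 (0.22). The 5 that were lower were the cohesin subunits Rec8 (-0.34), Smc1b (-0.28) and Smc3 (-0.13) and the central-element genes Tex12 (-0.30) and Syce2 (-0.25). Values of this list overlapped between the classes for every gene (0 of 16 without overlap, against 13.5% of all genes), and the second cluster was above the first for Sycp1, Sycp3 and Hormad1. With DESeq2 3 were higher (Sycp1, Sycp3 and Hormad1) and 1 lower (Smc1b), and the other 7 calls were lost.

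Transcripts of both programmes were met in the same cells. At 5000 UMIs per cell, 93.7% of KO A and 97.2% of KO B high cells of the first cluster and 98.9% and 98.8% of those of the second held UMIs of both Sycp1 and Sycp3. Among low cells it was 79.5% and 91.2% in the first cluster and 98.0% and 96.7% in the second. Without thinning, the shares were 98.9%, 99.3%, 100% and 100% in high cells and 94.2%, 97.6%, 100% and 100% in low cells. The authors' undifferentiated spermatogonia, in which these genes should be low, gave 33.3%, 31.1% and 31.1% in KO A, KO B and WT at the same thinned depth, with median depths of 17540, 18150 and 18313 UMIs before it, so all mixed classes lay above that background. High KO differentiating spermatogonia lay between at this depth, at 70.0% and 76.6%. The gap to the mixed classes was smaller without thinning. Undifferentiated spermatogonia then gave 77.3% in KO A and 72.2% in KO B, with WT lower. High KO differentiating spermatogonia then gave 87.4% in KO A and 94.5% in KO B.

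Genes of meiotic entry were called in both directions. Stra8, the retinoic acid target that starts meiotic transcription, averaged 10.8, 10.1, 21.8 and 19.6 in high cells and 12.4, 11.8, 27.4 and 26.2 in low cells (-0.29 ± 0.04; limma, adjusted p = 6.42e-14). It was lower in high cells in all 4 pairs, by less than the gap between the clusters. Of 15 genes of the list 4 were higher and 2 lower, against 12.0% and 13.4% of all genes, with a median of 0.06. With DESeq2 1 was higher and 0 lower. Meioc was higher by 0.21 ± 0.05 (limma, adjusted p = 2.79e-04) and Rbm46 by 0.27 ± 0.06 (1.83e-04), both partners of YTHDC2, while Ythdc2 itself (-0.12 ± 0.12, adjusted p = 0.528) and Xrn1, the 5'-to-3' exonuclease that binds YTHDC2 (0.04 ± 0.11, adjusted p = 0.850), did not pass. The Meioc and Rbm46 calls were lost with DESeq2 and after thinning. Tex101, a germ-cell surface protein, was higher by 0.28, Meiob, a single-strand DNA binding protein of recombination whose gene overlaps Hagh, by 0.79 ± 0.29 (adjusted p = 0.0302, lost with DESeq2 and after thinning), and Dmrt1, which holds spermatogonia in mitosis, was lower (-0.35). The Stra8 and Dmrt1 calls were also lost with DESeq2. Ccna1, the cyclin of the meiotic divisions, was at 0 in all 8 classes and was not tested.

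**Figure D4:**
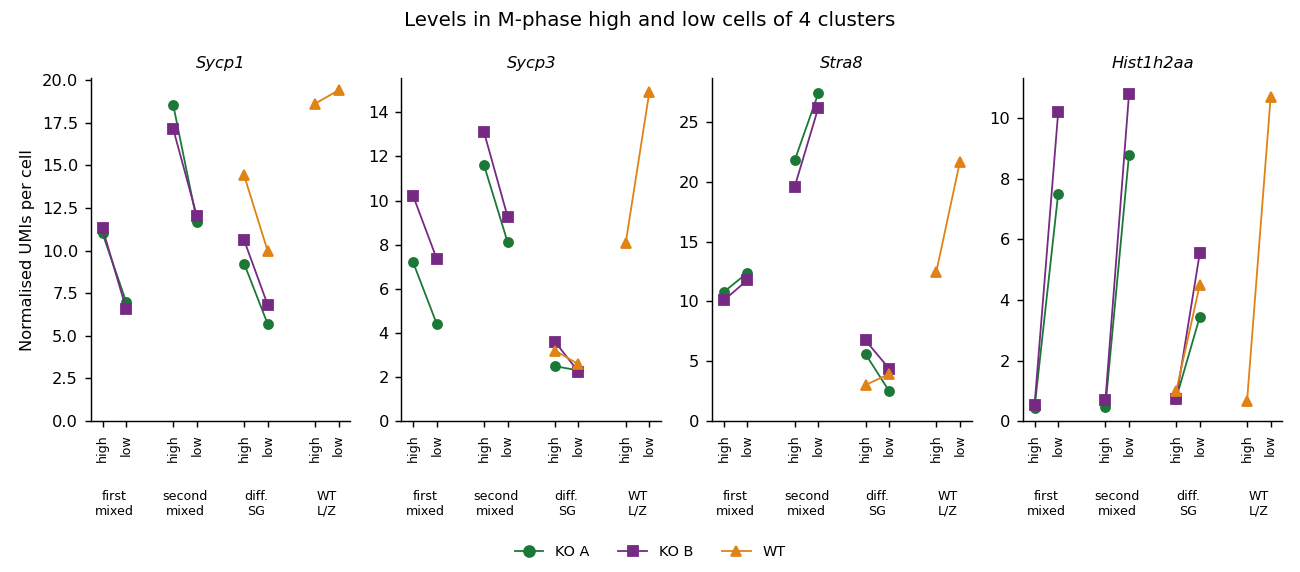
Mean normalised UMIs per cell (vertical axis) of Sycp1, Sycp3, Stra8 and Hist1h2aa in M-phase high and low cells of the first and second mixed clusters, the differentiating spermatogonia (diff. SG) and the WT leptotene-zygotene cluster (WT L/Z), with 1 line for each library. Hist1h2aa is at or below 0.992 in high cells of every cluster shown, and Stra8 in KO cells is lower in high than in low cells of both mixed clusters and higher in high cells of the spermatogonia.

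Genes of recombination and of the attachment of telomeres to the nuclear envelope were next. Of 27 recombination genes tested 11 were lower and 4 higher, against 13.4% and 12.0% of all genes, with a median of -0.26. With DESeq2 4 were lower and 2 higher. Rad51c, which acts in the repair of DNA breaks by recombination, averaged 0.293, 0.255, 0.275 and 0.293 in high cells and 0.595, 0.570, 0.484 and 0.593 in low cells (-0.98 ± 0.14). Rad51ap1, a recombination accessory gene (-0.63 ± 0.08), Msh5 of the crossover pathway (-0.60 ± 0.14) and the meiotic recombinase Dmc1 (-0.26 ± 0.06) were also lower. Rad51ap2, at 0.218, 0.194, 0.435 and 0.179 in high cells and 0.0933, 0.0839, 0.132 and 0.181 in low cells, was higher by 0.97 ± 0.21, though not in KO B of the second cluster. Of 8 telomere genes 5 were lower and 1 higher (median -0.48), against the same 13.4% and 12.0% of all genes. Cdk2, the kinase at meiotic telomeres that also drives S phase, averaged 0.415, 0.388, 0.372 and 0.429 in high cells and 0.613, 0.735, 0.836 and 0.747 in low cells (-0.85 ± 0.12; it overlaps Pmel). Spdya, the activator of CDK2 in this place (-0.76 ± 0.10; it overlaps Trmt61b), Ccdc155, the linker to dynein also named Kash5 (-0.59 ± 0.15), and Terb1 (-0.52 ± 0.16) followed, and Terf1, which binds telomeric repeats, was higher (0.48 ± 0.08). The calls of Msh5, Dmc1, Rad51ap2, Ccdc155 and Terb1 were lost with DESeq2, which left 2 telomere genes lower and 1 higher.

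Among genes of later prophase, Ccnb3, a cyclin B of meiotic cells, stood out by size. It averaged 0.158, 0.188, 0.303 and 0.208 in high cells and 0.0854, 0.0637, 0.0620 and 0.0387 in low cells (1.63 ± 0.25; limma, adjusted p = 2.80e-09), and the call was lost after thinning. Of 8 genes tested of 13 in the files 5 were higher and 1 lower (median 0.37), against 12.0% and 13.4% of all genes. Tdrd1 and Tdrd9 of the piRNA pathway were at 0.71 and 0.43 and Hspa2, a heat shock protein of spermatocytes, at 0.56. With DESeq2 or thinning 1 of the 8 was higher.

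Of 13 genes of spermatogonia tested 2 were higher and 2 lower (median 0.02), near the 12.0% and 13.4% of all genes. Kit, the receptor of differentiating spermatogonia, averaged 0.902, 0.870, 0.608 and 0.772 in high cells and 0.859, 0.949, 0.824 and 0.625 in low cells and did not pass (-0.05 ± 0.10, limma, adjusted p = 0.791). Ccnd3 (-0.48) and Ccnd1 (-0.31), D-type cyclins of G1, were lower in high cells, and Uchl1 (0.36) and Crabp1 (0.30) were higher; all 4 calls were lost after thinning.

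Of 15 genes of the p53 response tested, Trp53 included, 5 were lower in high cells and 2 higher, against 13.4% of all genes lower and 12.0% higher, with a median of -0.20. With DESeq2 3 were lower and 0 higher. Bbc3, which encodes the death-promoting protein PUMA, averaged 0.108, 0.0888, 0.0803 and 0.123 in high cells and 0.347, 0.404, 0.372 and 0.283 in low cells (-1.72 ± 0.20). Cdkn1a, which encodes the cyclin-dependent kinase inhibitor p21 (-1.27 ± 0.36), Ccng1 (-1.01 ± 0.27) and Btg2, an inhibitor of proliferation (-0.93 ± 0.14), were also lower. Cdkn1a was scarce, at 0.0211 to 0.0315 in high cells and 0.0432 to 0.158 in low cells, and its call was lost with DESeq2 and after thinning. Trp53 itself was higher by 0.53 ± 0.18 (limma, adjusted p = 0.0145), at 0.154, 0.3, 0.382 and 0.421 in high cells and 0.176, 0.291, 0.196 and 0.161 in low cells, with log2 differences of 1.13 in the second cluster and -0.07 in the first (test of second minus first, limma, adjusted p = 0.3). The Trp53 call was lost with DESeq2, after thinning, in cells between the UMI quartiles and without pairing by library. DNA damage signalling held 2 genes higher and 5 lower of 18 (1 lower and 0 higher with DESeq2), against 12.0% and 13.4% of all genes. Among those lower were the checkpoint kinase Chek1 at -0.53 and the ubiquitin ligase Rnf168 at -0.55. Those higher were Atrip (0.4) and Atr (0.19), and both calls were lost with DESeq2 and after thinning. Of 13 stress genes 3 were lower, namely Jun (-0.70), Ppp1r15a (-0.62) and Mthfd2 (-0.47), and 0 were higher, against the same 13.4% and 12.0%. With DESeq2 these 3 calls and that of Rnf168 were lost. Of 13 mitochondrially encoded genes 5 were lower, the largest difference being -0.15 (mt-Nd4), and 0 higher, again against 13.4% and 12.0% of all genes. DESeq2 and the test without pairing called 0 of them lower, and in cells between the UMI quartiles 2 were higher and 1 lower, with a median of 0.01 against -0.06.

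The clusters were then compared for their high-minus-low differences. Taken alone, the second cluster had 730 genes higher (7.85%) and 812 lower (8.74%), 16.6% in all. The first had 597 higher (6.42%) and 544 lower (5.85%), 12.3% in all. The 691 genes called in both in the same direction were 44.8% of the calls of the second cluster and 60.6% of those of the first, and 5 were called in opposite directions. The test of the difference itself, second minus first, called 20 genes (0.215% of 9295), 1 higher (0.0108%) and 19 lower (0.204%), and 18 of the 20 encode cytosolic ribosomal proteins. Rps24 averaged 45.5 and 45 in high cells and 51.6 and 52.9 in low cells of the second cluster (KO A, KO B), and 10.8 and 15.3 in high cells and 9.41 and 11.8 in low cells of the first. High cells were thus below low cells in the second cluster (log2 -0.21) and above them in the first (0.29), a difference of -0.50 (limma, adjusted p = 1.74e-04). The whole list of 80 ribosomal protein genes, put together after these values were seen, summed to 1197 and 1236 in high cells and 1277 and 1318 in low cells of the second cluster, and to 470 and 546 in high cells and 422 and 492 in low cells of the first. The clusters also differ in depth, as given above, and the part of depth in this was not tested. Hist1h1a was lowered more in high cells of the second cluster (-3.40) than in those of the first (-2.70; difference -0.70, adjusted p = 0.0279, and -0.98 in KO A and -0.42 in KO B alone), and Malat1, a nuclear long noncoding RNA, was the 1 gene with a higher difference (0.18). Without the cells called doublets limma called 0 genes, with 552 at an unadjusted p under 0.05 (624 with them), and with DESeq2 0 genes were called, with 48.

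As a reference in cells that are not mixed, the same shares were applied to the authors' cluster of KO differentiating spermatogonia, which gave 591 high and 128 low cells. The test of mixed minus spermatogonial differences called 367 genes (3.95%), 146 with a higher (1.57%) and 221 with a lower (2.38%) difference in mixed cells. Without pairing by library it called 8. Cks2 and Arl6ip1 differed more in mixed cells. The high-minus-low difference of Cks2 was 2.90 in mixed cells and 1.65 and 1.78 in spermatogonia of KO A and KO B (difference 1.18 ± 0.11), and that of Arl6ip1 was 2.54 in mixed cells and 1.26 and 1.44 in spermatogonia (1.20 ± 0.09). High cells had like levels of Arl6ip1 in both kinds of cell, 17.4, 16.9, 17.1 and 17.2 in mixed cells and 18.1 and 18.5 in spermatogonia, and low cells had 3.14, 2.92, 2.89 and 2.78 in mixed cells and 7.51 and 6.84 in spermatogonia. Bub3 (0.94), Fbxo5 (1.18), Cenpa (0.74), Tubb4b (0.65) and Prc1 (0.52) also had higher differences in mixed cells. For whole lists, 4 of 31 spindle genes and 3 of 26 mitotic regulators had a higher difference in mixed cells and 1 of each a lower one, against 1.57% and 2.38% of all genes. Most of these genes thus did not differ detectably between the 2 kinds of cell.

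In the other direction, Hist1h2aa had a larger negative difference in mixed cells, -4.11, against -2.18 and -2.90 in spermatogonia (difference -1.57 ± 0.14, and -1.95 in KO A and -1.19 in KO B alone). Its high cells were at 0.442 to 0.682 in mixed cells and at 0.755 and 0.736 in spermatogonia, and its low cells at 7.51 to 10.8 in mixed cells and 3.45 and 5.56 in spermatogonia. Stra8 turned direction: it was lower in high mixed cells (-0.29) and higher in high spermatogonia, with 5.61 and 6.74 in high and 2.51 and 4.39 in low cells (log2 1.16 and 0.62). The difference was -1.18 ± 0.07 (limma, adjusted p = 5.54e-67), an SE and a p that rest on variance pooled over genes. Bbc3 was lower in high mixed cells (-1.72), with differences of -0.03 and 0.38 in spermatogonia (difference -1.90 ± 0.39, adjusted p = 2.00e-04). Sycp1 and Sycp3 had differences of -0.02 and 0.15 between mixed cells and spermatogonia that did not pass. Among other named genes, Tmem150a (2.00 ± 0.46), Dlgap4 (1.83), Ddx11 (1.70), Ccnb3 (1.63), Hyls1 (1.48) and Trim52 (1.43) had higher and Ralgapa2 (-1.88), Cgref1 (-1.78), Crlf2 (-1.72) and Hist1h4c (-1.59) lower differences in mixed cells. The libraries differed widely for 5 of these. In KO A alone and KO B alone the difference was 1.14 and 2.52 for Dlgap4, 2.41 and 0.86 for Ccnb3, -3.17 and -0.58 for Ralgapa2, -2.93 and -0.63 for Cgref1 and -0.94 and -2.24 for Hist1h4c. Ddx11 is a helicase of sister chromatid cohesion, and the 4 with lower differences were scarce, reaching at most 0.532 normalised UMIs per cell in a mixed class (Hist1h4c).

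**Figure D5:**
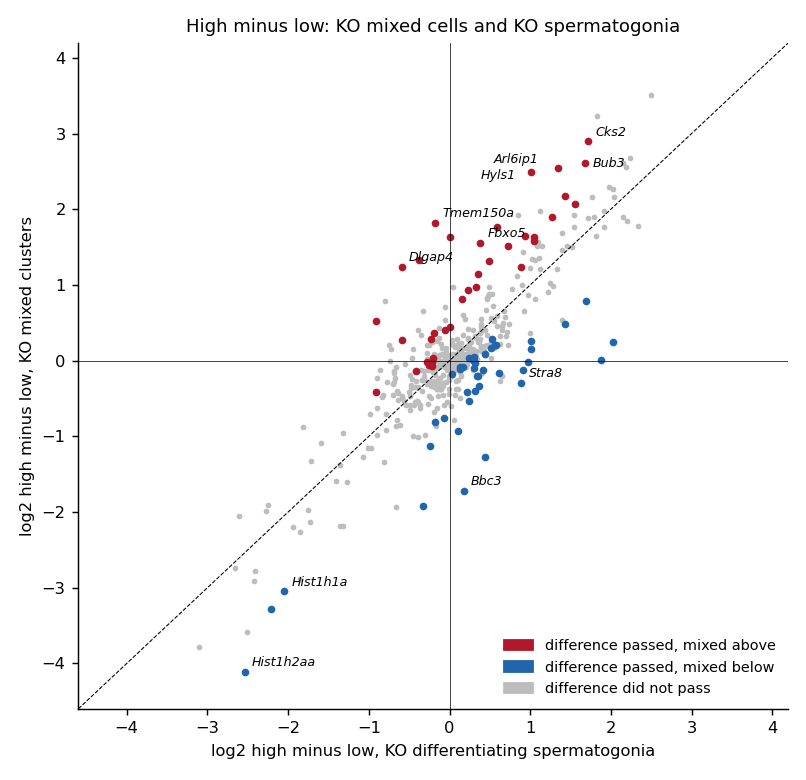
Log2 difference between M-phase high and low cells in KO mixed clusters (vertical axis) against that in KO differentiating spermatogonia (horizontal axis) for each listed or named gene tested, with the line of equality dashed and colours for genes whose difference between the 2 kinds of cell passed the test. Cks2, Arl6ip1 and Bub3 lie above the line on the right, Hist1h2aa and Hist1h1a below it on the left, and Stra8 is negative on the vertical and positive on the horizontal axis.

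Promoter letters were counted for the genes tested, of which 7569 of 9295 (81.4%) had a RefSeq window of 300 bases on GRCm38.p6 (the first where a gene had several). The cell cycle genes homology region, TTTGAA or TTTAAA on either strand, was in 29.5% of 915 windows of genes higher in high cells, 13.3% of 1027 windows of genes lower and 17.6% of all windows of tested genes. Among the 92 windows of genes higher by 1 or more on the log2 scale it was in 55.4%, and among the 75 windows of genes lower by 1 or more in 28%. E2F motifs (TTTCCCGC, TTTGGCGC, TTTGCCGC or TTTCGCGC, either strand) were in 3.39% of the higher, 9.93% of the lower and 5.01% of all tested windows. CCAAT on either strand was in 44.6%, 44.8% and 39.4%, and in 64.1% of the 92 windows and 66.7% of the 75. The 75 include windows of histone genes, and their shares were not taken without these. For all lower genes, the 1007 windows without histone genes gave 12.3% for the homology region, 10% for E2F and 44% for CCAAT. Over all 27025 windows of the RefSeq table the shares were 27.8% for the homology region, 2.32% for E2F and 37.9% for CCAAT. The windows of Arl6ip1 and Cks2 printed above hold CCAAT and none of the other letters searched, and these letters are a description of the windows and not sites of binding.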

How the data were processed

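Cell Ranger 3.0.2 and Scanpy, with mm10/GRCm38, are named in the submitters' processing notes. The authors deposited a matrix of natural logs of 1 plus the UMI count over the cell's size factor, for 14103 genes and 4528 cells. Their deposited cell table lists UMI and gene counts, the size factor (a score), the mitochondrial fraction, the library number and the cluster of every cell, and 11 of its columns were not used. Undoing log and size factor gave whole UMI counts for 100% of values (within 0.01), and detected genes equalled the deposited number in 4528 of 4528 cells. No cell was filtered out. Scrublet (scanpy 1.11.5), run on each library, marked doublets (16 KO and 6 WT cells, 5 of them in the compared classes) and kept.

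Means of count/size factor were taken per library, cluster and class. The 9295 genes with a mean of at least 0.05 over the 8 classes, leaving out the 20 that chose the cells, were tested on log2(mean + 0.01) with limma 3.58.1 (R 4.3.3) on within-library differences, with an empirical Bayes trend and Benjamini-Hochberg adjustment, at an adjusted p under 0.05. The high and low cells of a library come from the same suspension, which pairs them. Log2 differences understate changes of low genes. Residual degrees of freedom were 1 and prior ones 16.3, 382 or infinite. They were infinite for both clusters together, the first cluster and the spermatogonia comparison. There a gene's SE is set by the trend over genes and not by the spread of its own 2 libraries. On simulated data for the contrast over both clusters, 91% of 100 genes changed by 1 on the log2 scale, 40% of 100 changed by 0.5 and 0.055% of 9095 not changed were called. Every simulated gene had the same dispersion of 0.01 and the same mean share of UMIs in both libraries. Real genes vary unequally between the libraries, so these shares do not give the error rates of the real calls.

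The members and lists were chosen with earlier results of these data known. Named genes were the 15 with the largest called difference in each direction (level of at least 0.2 in the higher class, same sign in 4 pairs, no predicted genes), the 4 with the largest difference in each list, 6 in each direction for each test of a difference (fewer where fewer were called), and Ythdc2, Meioc, Rbm46, Stra8, Sycp3 and Ccna1. Further members named in a list were chosen after their values were seen. Alternatives were edgeR 4.0.16 and DESeq2 1.42.0 on summed UMI counts recovered from the deposited values, CPM scaling, a pseudocount of 0.1, no filter on low values, no pairing, other shares, thinning to 5000 UMIs, cells between the UMI quartiles and no doublets. Some results are not reported here.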

Additional observations from a re-analysis of the deposited data

Results flagged for a closer look

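The high-minus-low difference was itself different between the mixed clusters for 7 named genes, by the limma test of second minus first cluster. It was -0.70 for Hist1h1a, 0.18 for Malat1, -0.53 for Rpl31, -0.50 for Rps24, -0.45 for Rpl12, -0.44 for Rps28 and -0.43 for Rpl28, all on the log2 scale. Rpl31, whose gene overlaps Tbc1d8, averaged 4.04 and 4.74 in high cells and 4.66 and 4.67 in low cells of the second cluster, and 2.01 and 2.23 in high cells and 1.5 and 1.62 in low cells of the first (KO A, KO B). Rpl12 averaged 14.5 and 14.5 in high cells and 18.1 and 17.6 in low cells of the second cluster, and 3.69 and 4.63 in high cells and 3.56 and 3.89 in low cells of the first.

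Between KO mixed cells and KO differentiating spermatogonia the difference differed, by the same kind of test, for more genes than are listed here, Stra8 among them. The 12 genes listed were chosen for large passing differences in each direction. The difference was higher in mixed cells for Tmem150a (2.00), Dlgap4 (1.83), Ddx11 (1.70), Ccnb3 (1.63), Hyls1 (1.48) and Trim52 (1.43). It was lower for Bbc3 (-1.90), Ralgapa2 (-1.88), Cgref1 (-1.78), Crlf2 (-1.72), Hist1h4c (-1.59) and Hist1h2aa (-1.57). Dlgap4 averaged 0.630, 0.883, 0.564 and 0.542 in high mixed cells and 0.302, 0.213, 0.274 and 0.286 in low mixed cells (KO A and KO B of the first cluster, then of the second). Crlf2, a cytokine receptor gene, averaged 0.0688, 0.101, 0.0842 and 0.104 in high mixed cells and 0.221, 0.241, 0.197 and 0.256 in low mixed cells. Ralgapa2 and Cgref1 had log2 differences of 0.01 and 0.24 in mixed cells that did not pass. The low classes of spermatogonia held 67 KO A and 61 KO B cells, the smallest of those compared.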

How the results depend on the processing

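High and low cells were paired by library in the main test. With no replicate block, which drops that pairing, 1311 genes were called over both mixed clusters against 2361, 501 against 1141 in the first cluster, 1047 against 1542 in the second, 0 (518 unadjusted) against 20 for the difference between clusters and 8 against 367 for the difference from spermatogonia. DESeq2 called 562, 238, 241, 0 and 32 in that order, and thinning to 5000 UMIs left 1167, 542, 482, 11 and 37. Cells between the UMI quartiles gave 1467, 601 and 1021 over both, first and second clusters and 131 for spermatogonia. With classes at 1.5% or more and 0.25% or less, which hold 2 to 11 mixed cells each, limma called 0 genes over both clusters, in either cluster or between clusters (562, 466, 1259 and 404 at an unadjusted p under 0.05), and 9 for spermatogonia. With no filter on low values 0 were called in either cluster alone (1850 and 2153 unadjusted) and 43 between clusters. The count between clusters was also 7 with edgeR, 13 with a pseudocount of 0.1, 74 with a split at 0.75% and 0 without doublets (552 unadjusted), and that split gave 135 for spermatogonia. The cause of these changes was not tested. CPM scaling, edgeR, the other pseudocount, no filter, the split and no doublets gave 2106 to 2428 calls over both clusters, and the share of called genes that were higher was 40.3% with CPM scaling, 54.1% with edgeR and 61.2% with DESeq2 against 47.1%. In the first cluster it was 41.2% with CPM scaling and 73.5% with DESeq2 against 52.3%, in the second 68.0% with DESeq2 against 47.3%, and for spermatogonia 65.6% with DESeq2 against 39.8%. DESeq2 gave no adjusted p for 8109 of the 9295 genes in the spermatogonia test, so its calls there come from the other genes alone. Leaving out KO A or KO B leaves 1 library and no test; 2355 and 2359 of the 2361 called genes then kept their sign.

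Signs turned with the strict classes, whose median over all genes shifted to -0.298. The log2 difference was then 0.28 for Hist1h1t and Stra8, -0.01 for Ccnb3, -0.13 for Rbm46, -0.14 for Tex101, -1.31 for Rad21l, -1.56 for Tdrd1, -0.83 for Tdrd9, 1.57 for Ccnd3, -0.62 for Uchl1, 1.33 for Cdkn1a and -1.66 for Atrip. The difference between clusters was -0.09 for Malat1, and that from spermatogonia -3.51 for Ccnb3 and 0.91 for Ralgapa2. With a split at 0.75% that of Cgref1 was 0.04. Depth limits the scarce genes: the classes' median totals ran from 7842 to 18626 UMIs per cell.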

Other observations

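In the WT library the same shares could be applied to the leptotene-zygotene cluster, where 17 cells were high and 295 low; with 1 library there is no test. Rad51ap2, a gene of meiotic recombination, averaged 0.123 normalised UMIs per cell in high cells and 1.41 in low cells there, and Meiob 0.0463 and 0.590, the order opposite to that of the KO mixed cells, where both genes were higher in high cells over both clusters (limma), Rad51ap2 not in KO B of the second cluster. Ccnb3 averaged 0.364 in high and 0.764 in low WT leptotene-zygotene cells. Sycp3 averaged 8.06 in high and 14.9 in low cells and Stra8 12.5 and 21.7, and Sycp1 18.6 and 19.4. Plk1 was at 4.02 in the 17 high cells and at 0.0653 in the low cells, below the 0.321 to 0.365 of KO low mixed cells. Cks2 was at 5.68 and 0.683 and Arl6ip1 at 18.9 and 3.70 in high and low WT cells.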
